A study of Mus musculus with 7 samples.

Results

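The Rab genes described here are the 49 genes whose symbol is Rab followed by a number, at most 1 letter and at most 1 further digit, and that held at least 100 unique molecular identifiers (UMIs, each standing for 1 captured RNA molecule) in total over 7 single cell libraries of mouse brain microvessels. That form of name fits 59 of the 32285 genes in the files, and 14293 genes of any name reach 100 UMIs. The members were therefore chosen by their total UMIs, which ran from 133 for Rab39b, 141 for Rab27b and 178 for Rab3c just inside the limit to 50521 for Rab14. The 10 symbols under the limit were Rab7b with 76 UMIs, Rab37 with 74, Rab3b with 53, Rab38 with 44, Rab15 with 42, Rab33a with 40, Rab25 with 22, Rab44 with 15, Rab9b with 3 and Rab17 with 1.

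Rab proteins are small GTPases that sit on the membranes of vesicles and organelles and give each compartment its identity. A guanine nucleotide exchange factor (GEF) loads a Rab with GTP, the loaded Rab recruits effectors such as tethers and motors, and a GTPase-activating protein (GAP) switches it off, after which a GDP dissociation inhibitor takes it back to the cytosol. In brain endothelium this traffic carries receptors and transporters between the faces of the blood-brain barrier and releases stored von Willebrand factor, and in microglia it serves phagosomes and lysosomes.

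Each library came from microvessels of 1 hemisphere of C57Bl6 mouse brain without olfactory bulbs, cerebellum and brain stem, digested with collagenase after capture with CD31 antibody on beads. CD31 is an endothelial surface protein, so mural cells and microglia are those that came along with the vessels. Of the 7 libraries, 3 came from mice of 12 months and 4 from mice of 3 months, and every mouse was untreated and of 1 genotype. All were made with 10x Genomics v3.1 chemistry. The 12-month libraries had a single index and Cell Ranger 4.0.0, and the 3-month libraries a dual index and Cell Ranger 6.1.1, so age, index and software version cannot be told apart. The labels do not say whether each library is a separate animal, so the p-values measure the spread between libraries, which may be partly technical.

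The libraries held 8706961 to 44861008 UMIs, and 37351 of 43091 barcodes were kept as cells, 3799 to 8952 per library. Median UMIs per kept cell were 1096, 2783.5 and 1810 at 12 months and 3076.5, 5329, 4567 and 4910 at 3 months, so depth also differed between the ages with no overlap. Xist, the RNA of the silenced X chromosome, was high in capillary cells of 3-month libraries 1 and 2 only, and the Y-linked gene Ddx3y was present in the other 5, so the sexes are unevenly spread over the ages. Of all barcode sequences, 209 occurred in more than 1 library, 1 to 24 for any pair of libraries. Clusters were named from marker genes, so each class name below stands for cells like that type. Arterial (2241 cells), capillary (16087) and venous (2097) endothelial cells, pericytes (813), smooth muscle cells (1229) and microglia (2656) made up 6 classes, and the Rab genes were kept out of the genes used for clustering. The summed level of the 7 microglia markers was 14780 to 26560 CPM (UMIs of a gene scaled to a total of 1000000 UMIs per class and library) in microglia and at most 398.2 CPM in any other class. The 6 smooth muscle markers summed to 27450 to 47590 CPM in smooth muscle cells, and the 8 pericyte markers to 10430 to 27190 CPM in pericytes.

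Pericyte barcodes also carried endothelial RNA. The 6 endothelial markers, which include Cldn5, Pecam1 and Cdh5, summed to 11390 ± 2249 CPM (SD, n = 7 libraries) in pericytes, against 18740 ± 1433 CPM in capillary cells, 850.9 ± 369.9 CPM in smooth muscle cells and 464.6 ± 334.4 CPM in microglia. Of the 813 pericytes, 421 held under 4000 CPM of endothelial markers, called clean pericytes here. The smallest pericyte sum, of 12-month library 1, held 30 cells and 50220 UMIs, so its pericyte values rest on few UMIs. Pericyte values are for all pericytes unless clean pericytes are named, and the part of endothelial RNA in the summed Rab level, in the pericyte levels of regulators and in the pericyte age differences was not tested.

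Sequences just upstream of 6 of the genes are shown first, because Rab8b, Rab20, Rab32, Rab39 and Rab43 were higher in microglia than in every other class and Rab27a was higher in venous than in all other endothelial cells. They are from RefSeq, build GRCm38.p6, each written 5′ to 3′ on the gene's own strand. For Rab20 and Rab32 the GENCODE gene starts upstream of the RefSeq start, so only bases outside the GENCODE gene are shown, with 30 bases around a match inside it. Capitals mark 2 short words searched on both strands, GAGGAA, which reads TTCCTC on the other strand and holds the core letters bound by the myeloid factor PU.1, and ACGTG, which reads CACGT on the other strand and holds the core letters of the E-box bound by MiT family factors of lysosomal genes. The 2 words share no letters in any sequence shown, but where the second word is preceded by a C it reads the same on both strands and counts as 2 matches.
Rab8b, chr9:66919706-66919955, minus strand: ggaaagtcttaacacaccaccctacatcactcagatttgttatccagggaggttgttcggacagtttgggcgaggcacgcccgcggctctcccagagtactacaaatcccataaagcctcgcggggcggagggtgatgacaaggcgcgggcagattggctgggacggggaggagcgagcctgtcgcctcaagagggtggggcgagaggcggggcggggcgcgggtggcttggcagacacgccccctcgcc
Rab20, chr8:11478711-11478890, minus strand: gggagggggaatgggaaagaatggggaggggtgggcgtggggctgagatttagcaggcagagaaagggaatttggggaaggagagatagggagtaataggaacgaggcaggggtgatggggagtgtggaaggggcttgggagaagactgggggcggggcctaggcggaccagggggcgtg
Rab20, around its matches, chr8:11478669-11478698, minus strand: cggccgggcaccCACGTGgtcgcagggctg
Rab32, chr10:10558266-10558457, minus strand: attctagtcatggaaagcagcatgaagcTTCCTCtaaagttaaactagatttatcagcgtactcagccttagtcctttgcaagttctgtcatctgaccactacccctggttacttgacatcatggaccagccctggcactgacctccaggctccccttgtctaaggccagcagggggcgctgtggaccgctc
Rab32, around its other match, chr10:10558233-10558262, minus strand: gtagccagggaaGAGGAAgtgccgggacca
Rab39, chr9:53706233-53706482, minus strand: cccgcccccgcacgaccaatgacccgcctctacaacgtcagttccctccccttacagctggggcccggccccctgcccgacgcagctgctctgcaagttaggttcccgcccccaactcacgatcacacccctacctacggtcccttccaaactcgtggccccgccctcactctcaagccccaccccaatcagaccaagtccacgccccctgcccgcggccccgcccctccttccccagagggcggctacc
Rab43, chr6:87812165-87812414, minus strand: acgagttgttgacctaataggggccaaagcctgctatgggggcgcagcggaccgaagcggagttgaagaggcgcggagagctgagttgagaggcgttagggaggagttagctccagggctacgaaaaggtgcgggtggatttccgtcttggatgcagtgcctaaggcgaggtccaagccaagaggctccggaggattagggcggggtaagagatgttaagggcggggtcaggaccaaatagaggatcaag
Rab27a, chr9:73044560-73044809, plus strand: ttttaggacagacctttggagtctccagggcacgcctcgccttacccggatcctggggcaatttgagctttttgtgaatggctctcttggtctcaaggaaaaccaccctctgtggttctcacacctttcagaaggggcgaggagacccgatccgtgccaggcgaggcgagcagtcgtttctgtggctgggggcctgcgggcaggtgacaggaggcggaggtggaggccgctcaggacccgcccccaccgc

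Of the 6 genes, only Rab32 held GAGGAA, with 2 matches, and only Rab20 held ACGTG, in the 250 bases before the RefSeq start. GAGGAA stood in 23.1% of 27025 promoters of the same length and in 6 of the 42 members found in the table (14.3%). ACGTG stood in 16.6% of the promoters and in 8 of the 42 members (19%). A match here is a description of letters and not a binding site, and the absence of one says only that these letters are not in the window. Rab2a, Rab30, Rab4a, Rab36, Rab26, Rab18 and Rab27b had no entry used here.

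Summed over the 49 members, Rab RNA took a like share of UMIs in 5 classes and a lower one in smooth muscle. The sum was 3012 ± 96.7 CPM in arterial, 3035 ± 163.1 CPM in capillary and 3003 ± 156.5 CPM in venous endothelial cells, 3023 ± 153.8 CPM in pericytes and 2902 ± 123.2 CPM in microglia (SD, n = 7 libraries each). In smooth muscle cells it was 2488 ± 131.9 CPM, and the highest smooth muscle library, at 2705 CPM, lay under the lowest library of every other class. By mean CPM, 13 members were highest in microglia, 11 in arterial, 7 in capillary and 7 in venous endothelial cells, 9 in pericytes and 2 in smooth muscle cells. Members near 0 are included, such as Rab3c with a highest mean of 0.5283 CPM, in arterial cells. The same count over all genes was not computed, so it is not read as particular to Rab genes.

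**Figure D1:**
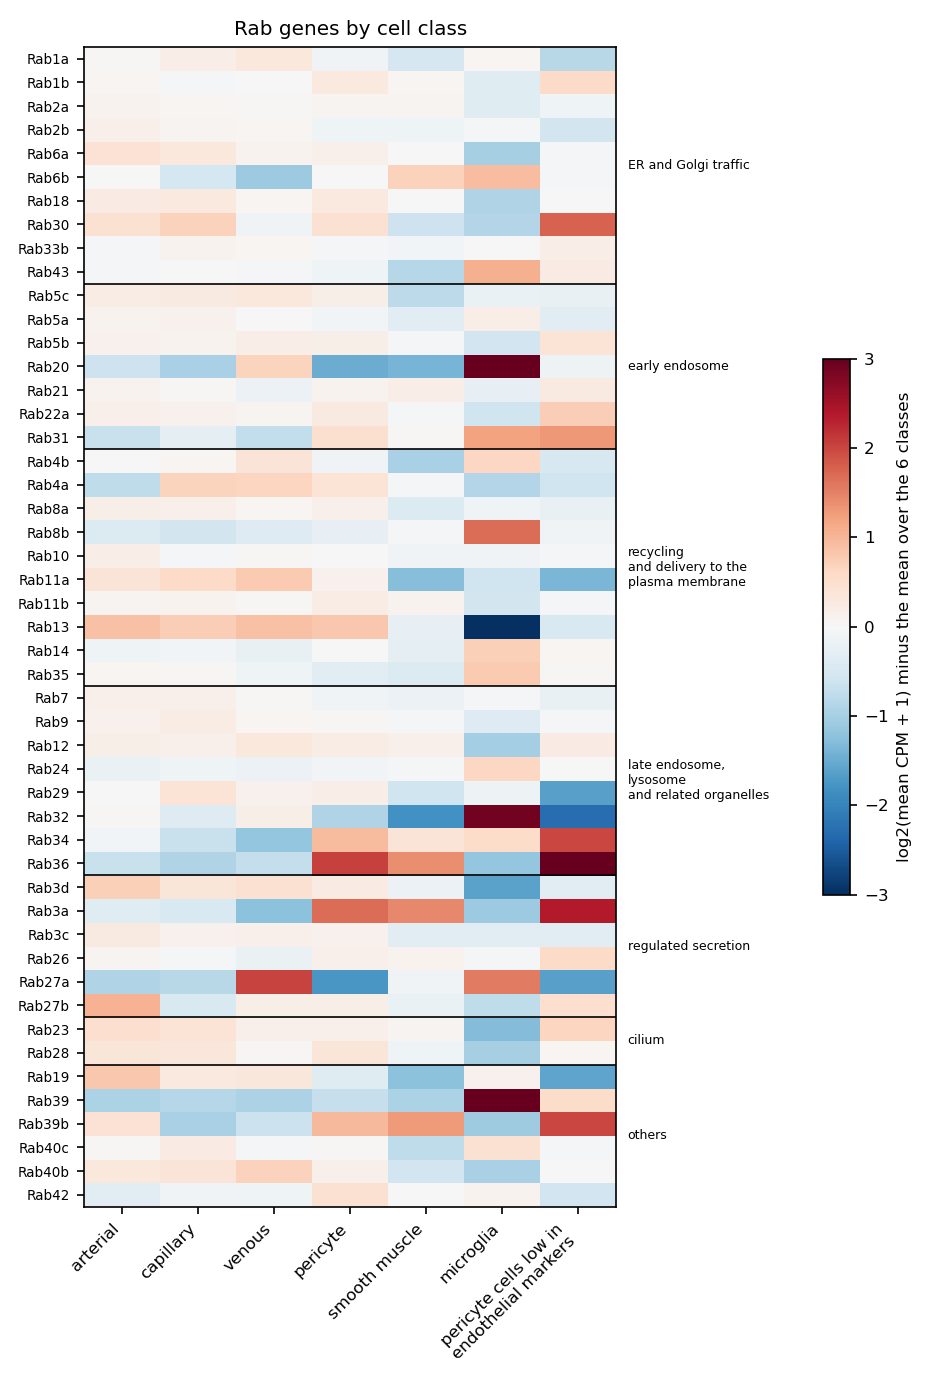
Heat map of the 49 Rab genes (vertical axis, grouped by role) in 6 cell classes and, in a last column, pericytes low in endothelial markers (horizontal axis). Colour is log2(mean CPM + 1) over 7 libraries, or 5 for the last column, minus the gene's mean over the 6 classes. Rab8b, Rab20, Rab32, Rab39 and Rab43 stand out in microglia, Rab27a in venous cells and microglia, and Rab3a in pericytes and smooth muscle cells.

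Summed counts per library and class were tested with edgeR's quasi-likelihood test over all genes, with the library as a term and Benjamini-Hochberg adjustment, and a gene was called at an adjusted p under 0.05. In the fit of the 6 classes 40 members could be tested, and Rab40b, Rab30, Rab19, Rab42, Rab26, Rab36, Rab3c, Rab27b and Rab39b were too low. The share of all tested genes called was 30.4% between arterial and capillary, 39.6% between arterial and venous and 36.8% between capillary and venous cells. Pericytes differed from arterial, capillary and venous cells in 35.1%, 31.7% and 36.3% of genes and from smooth muscle cells in 48.2%. Smooth muscle cells differed from those 3 in 61.2%, 64.3% and 64.1% of genes. Microglia differed from arterial, capillary and venous cells, pericytes and smooth muscle cells in 71.1%, 72.7%, 71.8%, 66.6% and 70.6%. Over these 15 contrasts a member was called in a median of 8. The same count per gene over all tested genes was not computed, so it is not read as particular to Rab genes. Rab11a was called in all 15, Rab31 in 13, and Rab4a, Rab4b, Rab6b, Rab13 and Rab34 in 12 each. Rab2b, of the Golgi, and Rab33b, of the Golgi and of autophagosomes, were called by edgeR in 0 of 15, also at an unadjusted p under 0.05, with class means of 23.6 to 28.8 CPM for Rab2b and 15.3 to 17.5 CPM for Rab33b.

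Microglia against capillary cells gave 14 of 40 members higher and 17 lower, where 35.7% of all tested genes were higher and 37.1% lower. Smooth muscle against capillary cells gave 12 higher and 12 lower, where 32.4% were higher and 32% lower, and 14 in all with the sums of each library thinned to 1 size. The shares of members called in both contrasts lay near that background. The members are taken below by the step of traffic they serve.

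Of the 10 members of ER and Golgi traffic, Rab1a and Rab1b act between ER and Golgi. Rab1a was lowest in smooth muscle cells, at 95.8 ± 12.2 CPM, against 155 ± 22.8 CPM in capillary cells, and fell by 0.45 on the log2 scale between them. Rab1b was lowest in microglia, at 55.2 ± 16.8 CPM, and highest in pericytes, at 86.6 ± 20.3 CPM (105.4 ± 22.77 CPM in clean pericytes, n = 5). Rab6a and its paralog Rab6b, of retrograde Golgi transport, ran in opposite directions. Rab6a was 125 ± 18.6 CPM in capillary cells and 49.9 ± 7.88 CPM in microglia, a log2 difference of −1.18 ± 0.092 (SE, adjusted p = 9.26e-16 by edgeR). Rab6b was 61.8, 82.8 and 93.2 CPM in the lowest, median and highest microglia library and 47.3, 68.5 and 93.2 CPM in smooth muscle cells, while no capillary library exceeded 34.0 CPM. Microglia and smooth muscle cells therefore did not overlap capillary cells for Rab6b, with log2 differences of 1.66 ± 0.122 and 1.44 ± 0.123. Rab18, of ER and lipid droplets, was 185 ± 28.7 CPM in capillary cells and 80.2 ± 24.4 CPM in microglia, lower by a log2 difference of −1.04. Rab2a, of ER and Golgi membranes, was 225 ± 24.8 CPM in capillary cells and 167 ± 12.3 CPM in microglia. Rab30, a Golgi Rab, reached at most 3.08 CPM, its mean in capillary cells.

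Among the 7 early endosome members, Rab5a, Rab5b and Rab5c all drive fusion of early endosomes, yet they ranked the classes differently. Rab5a was highest in microglia, at 130 ± 33.4 CPM, and lowest in smooth muscle cells, at 88.4 ± 15.3 CPM. Rab5b was lowest in microglia, at 38.3 ± 13.7 CPM, and Rab5c in smooth muscle cells, at 71.2 ± 15.0 CPM. For Rab5c the smooth muscle libraries lay at 43.6, 72.9 and 86.6 CPM and the capillary libraries at 131 CPM or above, so they did not overlap, and the log2 difference was −0.82 ± 0.082 (adjusted p = 3.79e-12 by edgeR). Rab31, which serves traffic between the trans-Golgi network and endosomes, stood at 39.0, 61.8 and 70.2 CPM in microglia and at 15.0, 20.4 and 24.8 CPM in capillary cells, without overlap. Its log2 difference in microglia was 1.70 ± 0.112. Rab21, linked to integrin uptake, was highest in smooth muscle cells, at 107 ± 17.8 CPM, and Rab22a, of early and recycling endosomes, in pericytes, at 69.9 ± 24.4 CPM (95.73 ± 34.13 CPM in clean pericytes, n = 5).

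The 10 members of recycling and delivery to the plasma membrane included Rab13, with the lowest log2 difference of microglia against capillary cells. Rab13 delivers proteins to tight junctions. It was 36.4, 42.5 and 50.9 CPM in capillary cells and 0, 1.41 and 5.70 CPM in microglia, where only 11 UMIs were counted. The microglia libraries lay far under all others, with a log2 difference of −4.31 ± 0.22 (adjusted p = 2.1e-22 by edgeR). Smooth muscle cells, at 21.2 ± 3.75 CPM, also lay under capillary cells for Rab13 without overlap. Rab11a, the main Rab of the slow recycling endosome, was called between every pair of classes when all pericytes were used. With clean pericytes, at 69.7 ± 9.65 CPM (n = 5), the call against smooth muscle cells was lost. It was 278, 302 and 347 CPM in venous, 230, 269 and 300.2 CPM in capillary, 149, 195 and 239 CPM in pericyte and 95.5, 112 and 151 CPM in microglia libraries. In smooth muscle cells Rab11a was 63.0, 72.7 and 89.1 CPM, under every library of the other classes with all pericytes, with a log2 difference of −1.62 ± 0.086 from capillary cells (adjusted p = 1.2e-21 by edgeR). Its paralog Rab11b did not share this order, at 146 ± 15.97 CPM in smooth muscle and 145 ± 10.98 CPM in capillary cells, and was lowest in microglia, at 92.7 ± 12.7 CPM. Rab4a and Rab4b, of fast recycling, also ran apart. Rab4a was 35.0 ± 13.3 CPM in capillary cells and 11.3 ± 4.87 CPM in microglia, while Rab4b was 56.0 ± 12.2 and 84.4 ± 20.5 CPM.

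Rab8b, which brings post-Golgi vesicles to the cell surface, was 108, 167 and 247 CPM in microglia and 32.6 to 61.8 CPM over all libraries of the other classes. Its paralog Rab8a did not follow, at 55.7 ± 16.3 CPM in microglia and 67.5 ± 7.30 CPM in capillary cells. Rab14, which links the Golgi and endosomes, was 432, 494 and 536 CPM in microglia, above every capillary library, of which the highest was 333 CPM. The log2 difference of Rab14 was 0.90 ± 0.065. Rab35, a plasma membrane recycling Rab, was 77.6 ± 10.9 CPM in microglia and 46.0 ± 9.04 CPM in capillary cells. Rab10, which delivers vesicles to the surface, was called in only 2 of 15 contrasts and ran from 116 CPM in microglia to 145 CPM in arterial cells.

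Of the 8 members of late endosomes, lysosomes and related organelles, Rab7, the Rab of late endosome fusion with lysosomes, was called in 1 of 15 contrasts and ran from 126 ± 11.1 CPM in smooth muscle cells to 158 ± 7.18 CPM in capillary cells. Rab12, of degradation of membrane receptors, was 60.0 ± 18.8 CPM in microglia and 136 ± 18.7 CPM in capillary cells, a log2 difference of −0.997. Rab32, which acts on lysosome-related organelles and phagosomes, was 21.8, 34.5 and 44.99 CPM in microglia and at most 10.7 CPM in any library of another class. Rab34, linked to lysosome position and cilia, stood at 11.5, 23.96 and 47.6 CPM in pericytes, 11.3, 15.5 and 24.7 CPM in smooth muscle cells and 6.26, 7.97 and 9.55 CPM in capillary cells. Pericytes and smooth muscle cells overlapped each other for Rab34, and neither overlapped capillary cells. Rab36, a close relative of Rab34, was too low to test, with 29 UMIs in pericytes and 29 in smooth muscle cells. It averaged 8.95 ± 6.45 and 5.33 ± 1.76 CPM there and at most 0.501 CPM in the other 4 classes. Rab24, of autophagy, was highest in microglia, at 70.9 ± 17.1 CPM. Rab9, of late endosome to Golgi return, was lowest in microglia, at 33.3 ± 11.5 CPM, and Rab29, a Golgi and lysosome Rab, was highest in capillary cells, at 19.9 ± 4.09 CPM.

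Among the 6 members of regulated secretion, Rab3a, best known from synaptic vesicles, was the one shared by both mural classes. It was 36.6, 67.9 and 120 CPM in pericytes and 43.7, 59.5 and 75.9 CPM in smooth muscle cells, against 13.3, 16.8 and 18.7 CPM in capillary cells. Every mural library lay above every capillary library for Rab3a, with log2 differences of 2.02 ± 0.143 in pericytes (adjusted p = 1.81e-16 by edgeR) and 2.15 ± 0.127 in smooth muscle cells (adjusted p = 7.16e-20). Rab3d, of secretory granules, was 20.0 ± 3.81 CPM in capillary cells and 4.44 ± 5.40 CPM in microglia, a log2 difference of −2.16 ± 0.289. Rab27a, which docks lysosome-related secretory organelles, was 24.9 ± 8.93 CPM in microglia, 7.14 ± 2.19 CPM in smooth muscle cells and 3.95 ± 1.18 CPM in capillary cells. Rab27b, Rab3c and Rab26 stayed under 3 CPM on average in all 6 classes. No UMI of Rab27b, Rab3c or Rab39b was counted in microglia, which allows up to 0.517 CPM at 3 counts, for counting error only.

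Both cilium members were low in microglia. Rab23, known for its part in Hedgehog signalling, was 17.1 ± 2.53 CPM in capillary cells and 4.53 ± 2.83 CPM in microglia, and Rab28 was 58.0 ± 10.2 and 22.6 ± 6.03 CPM, with log2 differences of −1.65 ± 0.243 and −1.29 ± 0.136. Of the remaining 6 members, Rab40c, a subunit of ubiquitin ligases, was lowest in smooth muscle cells, at 6.75 ± 3.95 CPM. Rab40b, its paralog, averaged 1.06 to 5.57 CPM and Rab19 0.274 to 4.30 CPM. Rab42 averaged 1.89 to 3.92 CPM, and Rab39b, a neuronal Rab, 0 to 4.12 CPM with the highest mean in smooth muscle cells.

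A gene was taken to mark a class where it was higher than in each of the other 5 classes with an adjusted p under 0.05 and a log2 fold change of at least 1. Clusters outside the 6 classes took no part in this rule, and values for some of them are given under other observations. By this rule 5 Rab genes marked microglia, where 12% of all tested genes did, and 0 marked any other class, where 1.06% of genes marked arterial, 0.028% capillary and 0.941% venous cells, 1.02% pericytes and 6.35% smooth muscle cells. At an unadjusted p the rule gave the same 5 and 0, and DESeq2 gave 6 for microglia, with Rab31 added, and 0 for the others. With no minimum fold, edgeR gave 11 for microglia, 3 for smooth muscle cells (Rab2a, Rab21 and Rab11b), 1 for capillary (Rab29) and 1 for venous cells (Rab11a). The 6 others in microglia were Rab14, Rab35, Rab4b, Rab24, Rab5a and Rab31. The shares of all genes at an unadjusted p, by DESeq2 or with no minimum fold were not computed. Counts under these other rules are therefore not read as particular to Rab genes.

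Rab8b (chr9:66843664-66919687, GRCm38) was 174 ± 43.2 CPM in microglia (n = 7) and stood next highest in smooth muscle cells, at 51.6 ± 7.04 CPM, a log2 difference of 1.59 ± 0.109 (adjusted p = 1.24e-17 by edgeR). Rab20 (chr8:11453518-11478710), a Rab of early endosomes and phagosomes, was 54.0, 58.9 and 97.0 CPM in microglia and at most 16.6 CPM in any other library. Venous cells came next for Rab20, at 6.68 ± 6.44 CPM, a log2 difference of 3.79 ± 0.281 (adjusted p = 1.65e-16). Rab32 (chr10:10545002-10558265) was 35.7 ± 7.36 CPM in microglia and next highest in venous cells, at 4.57 ± 2.85 CPM, a log2 difference of 3.02 ± 0.261 (adjusted p = 2.53e-14). None of the microglia libraries overlapped another class for Rab8b, Rab20 or Rab32. Rab39 (chr9:53684110-53706232) held 222 UMIs in microglia, at 16.9, 36.1 and 73.8 CPM, and 2 UMIs in capillary cells, 1 in pericytes and 0 in the other 3 classes. A count of 0 allows Rab39 up to 0.268 CPM in arterial, 0.129 CPM in venous and 0.506 CPM in smooth muscle cells. Its adjusted p against pericytes was 1.08e-11, and the fitted fold, which depends on the prior count, is not given. Rab43 (chr6:87788853-87812164), of the Golgi, was 32.3, 50.6 and 63.2 CPM in microglia and 13.8 to 31.1 CPM in venous cells, without overlap, and the log2 difference was 1.31 ± 0.147 (adjusted p = 6.24e-11). Of its transcript words of 50 bases, 74.5% also occur in Gm45140, so how reads were split between the 2 is not known.

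**Figure D2:**
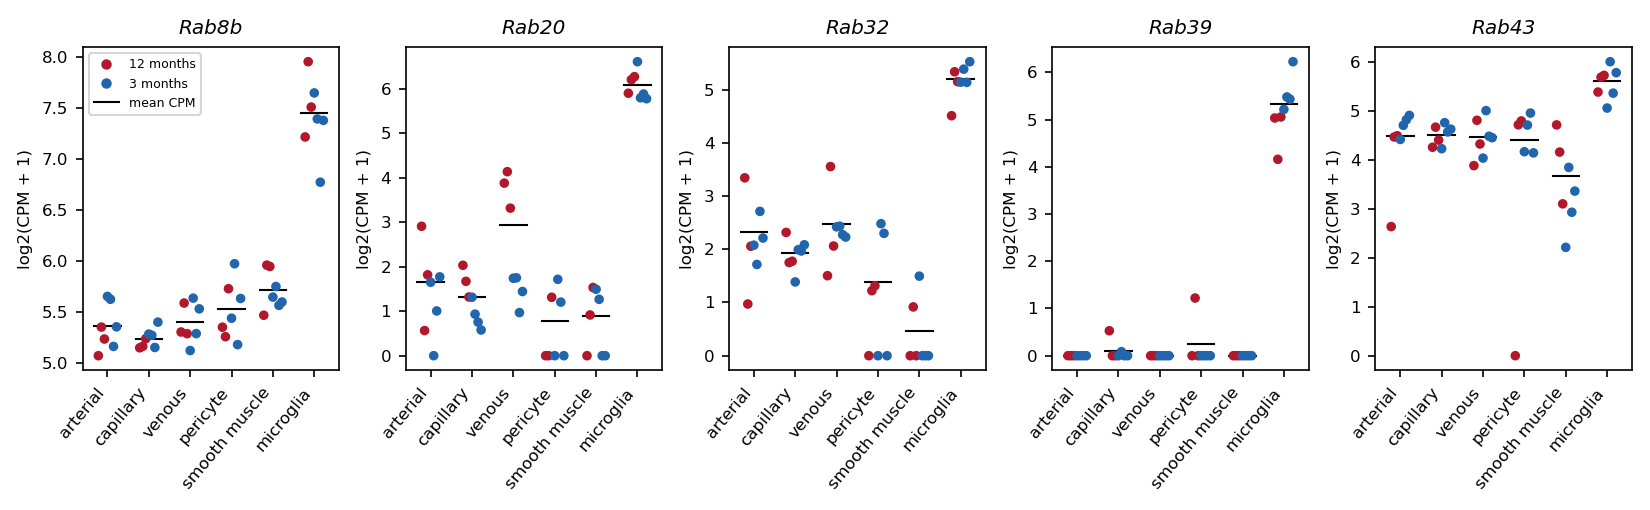
CPM on a log2(CPM + 1) axis of the 5 Rab genes that marked microglia, in 6 classes; each point is 1 of 7 libraries, coloured by age, and bars are means. Microglia libraries lie above those of the other 5 classes for each gene, and Rab39 is at or near 0 in those classes.

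In pericytes, 3 Rab genes were higher and 8 lower than in capillary cells, where 14.4% of all tested genes were higher and 17.3% lower. Rab3a, Rab34 and Rab31 were higher, the last by a log2 difference of 0.66 ± 0.144 (adjusted p = 0.000231 by edgeR). Rab11a was lower by −0.55 ± 0.082, and Rab1a, Rab4a, Rab5a, Rab6a, Rab7, Rab29 and Rab35 were lower by −0.25 to −0.56. Without 12-month library 2 or 12-month library 3 the count called was 7 in place of 11, and 3 with sums thinned to 1 size, Rab3a, Rab34 and Rab11a. Against smooth muscle cells, pericytes were higher for 6 members and lower for 7, where 24.5% of all genes were higher and 23.7% lower. The 6 higher were Rab11a with 1.07 ± 0.099, Rab43 with 0.76, Rab5c with 0.68, Rab4b with 0.62, Rab13 with 0.47 and Rab8a with 0.39 on the log2 scale. The 7 lower were Rab27a, Rab6b, Rab21, Rab8b, Rab2a, Rab11b and Rab12, of which Rab27a had 7 UMIs in pericytes.

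Clean pericytes gave other values for several of these, and 12-month library 1 and 3-month library 1 dropped out with 12 and 14 such cells. Their endothelial markers summed to 585.8 ± 359.8 CPM (n = 5 libraries). Against capillary cells, where 39.4% of all genes were then called, Rab34 was higher by a log2 difference of 2.77, Rab3a by 2.76 and Rab31 by 1.29. Rab11a was lower by −2.19, Rab4a by −1.51, Rab1a by −1.38 and Rab13 by −1.33. Clean pericytes held 0 to 33.89 CPM of Rab4a and 0 to 27.4 CPM of Rab13 per library, near the floor of these small sums. Rab29 was 0, 3.514, 0, 0 and 16.94 CPM, too low for its fold to be given. The 5 libraries held 73.1, 63.25, 67.1, 60.4 and 84.7 CPM of Rab11a in clean pericytes, all under the lowest library of all pericytes and close to the smooth muscle libraries. Rab34 was 45.7, 87.8, 16.8, 60.4 and 67.8 CPM, with 4 of 5 above every smooth muscle library. Rab36, the relative of Rab34 too low to test, was 27.4, 14.1, 67.1, 0 and 42.4 CPM. These libraries held 80, 198, 23, 51 and 43 clean pericytes, so the values of Rab34 and Rab36 rest on few UMIs. In 3-month library 2 the 16.8 CPM of Rab34 was the lowest value above 0 of any member. Against smooth muscle cells, where 27.6% of genes were called, Rab34 was higher by 1.503 ± 0.272 (adjusted p = 1.57e-05 by edgeR) and Rab3a by 0.67 ± 0.208 (adjusted p = 0.0113). Rab11a, Rab13 and Rab8a then pointed the other way, at −0.51, −0.53 and −0.13 without a call, and Rab43, Rab4b, Rab5c and Rab8b lost theirs. Rab34 met the rule for marking a class in clean pericytes, the only member to do so. The share of all genes that met it with clean pericytes was not computed. Mean Rab34 was 55.68 ± 26.54 CPM in clean pericytes, and it was 69.26 CPM in a cluster led by fibroblast genes, outside the 6 classes.

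**Figure D3:**
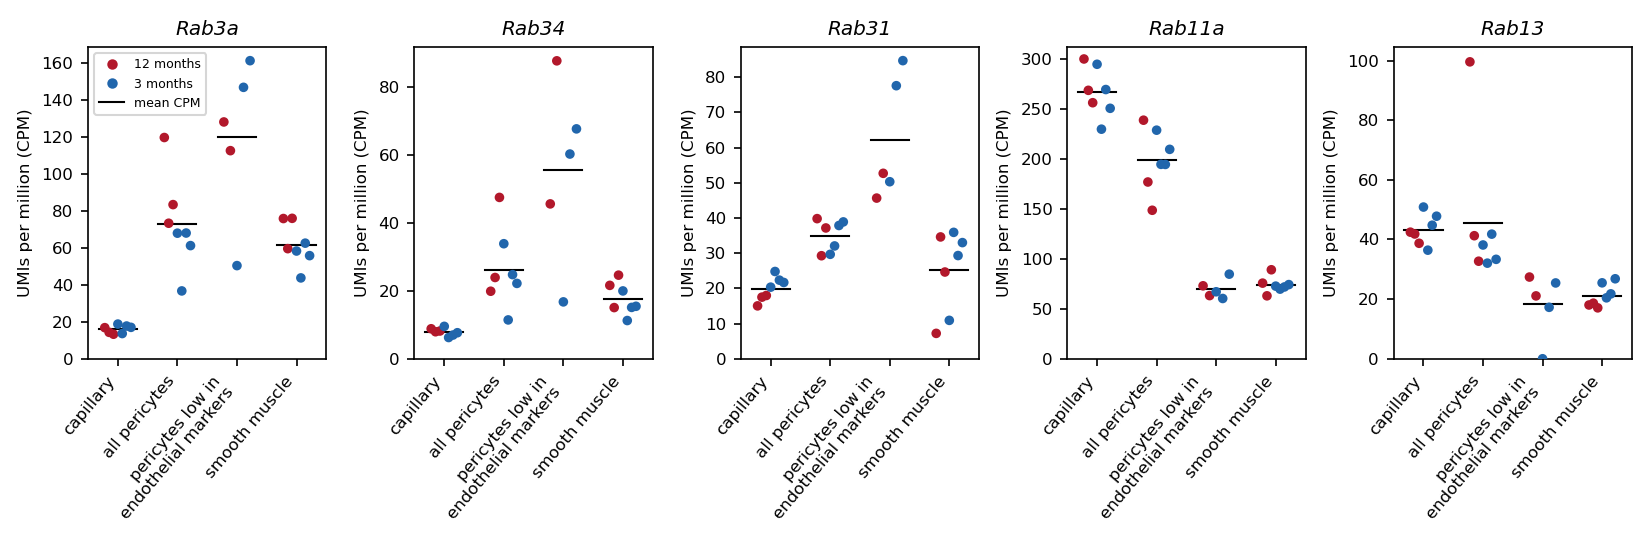
CPM of Rab3a, Rab34, Rab31, Rab11a and Rab13 in capillary cells, all pericytes, pericytes low in endothelial markers and smooth muscle cells; points are libraries (7, or 5 for the pericytes low in endothelial markers), coloured by age, and bars are means. Rab11a and Rab13 are lower, and Rab3a, Rab34 and Rab31 higher on average, in clean than in all pericytes.

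Along the vessel tree 5 endothelial groups were compared, arterial cells, arterial-side (7330 cells), mid- (3152) and venous-side (5605) capillary cells, and venous cells. A separate fit held the endothelial sums only. Of its 40 tested members, 24 were called in at least 1 of the 3 contrasts of arterial, capillary and venous cells and 16 in none, while Rab1a, Rab11a, Rab6b and Rab34 were called in all 3. Single contrasts called 33.7% (arterial over capillary), 42.6% (venous over capillary) and 44% (arterial over venous) of all tested genes. The joint shares over all genes were not computed, so these joint counts are not read as particular to Rab genes. Rab20, Rab30, Rab42, Rab26, Rab36, Rab39, Rab3c, Rab27b and Rab39b were too low for this fit. Arterial over capillary cells gave 5 members higher and 5 lower, where 17.7% of all tested genes were higher and 16% lower. Venous over capillary cells gave 9 higher and 10 lower, where 21.9% and 20.8% were, and arterial over venous cells 7 higher and 7 lower, where 22% and 22% were. Within capillaries, the arterial side against the venous side gave 5 higher and 7 lower of 38, where 17% and 16.7% were. With the sums of each library thinned to 1 size, 29 members could be tested and the counts called were 2, 2 and 3, and 6 of 36 for the capillary sides.

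Rab27a (chr9:73044854-73097629, GRCm38) had the largest log2 difference between segments of the tested members. In endothelium it sits on Weibel-Palade bodies, the stores of von Willebrand factor. Venous cells held 795 UMIs of Rab27a, at 18.4, 36.4 and 44.7 CPM in the lowest, median and highest of 7 libraries, against 1.92 to 6.53 CPM in arterial cells. Means were 2.83 ± 1.47 CPM in arterial-side, 3.31 ± 1.92 CPM in mid- and 4.93 ± 1.37 CPM in venous-side capillary cells, and the highest venous-side library, at 6.97 CPM, lay well under the lowest venous library. The log2 difference of Rab27a was 3.10 ± 0.122 between venous and capillary cells (adjusted p = 9.74e-17 by edgeR) and −3.51 ± 0.203 between arterial and venous cells (adjusted p = 1.14e-13). The arterial side of the capillaries was lower than the venous side by −0.69 ± 0.208, a call lost without 3-month library 4. In the thinned sums Rab27a was too low to test between arterial, capillary and venous cells.

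Rab4a (chr8:123805985-123835287), of fast recycling of receptors such as the transferrin receptor, was lowest in arterial cells. The lowest, median and highest library stood at 5.28, 9.48 and 26.8 CPM in arterial, 9.88, 15.98 and 42.2 CPM in arterial-side capillary, 28.3, 40.5 and 72.7 CPM in venous-side capillary and 19.4, 29.1 and 56.6 CPM in venous cells. These ranges overlap, and 3-month library 1 was the highest in each segment. In the fit that takes each library as a term, the log2 difference of Rab4a was −1.55 ± 0.124 between arterial and capillary cells (adjusted p = 9.46e-11), −1.62 ± 0.133 between arterial and venous cells and −1.04 ± 0.095 between the capillary sides (adjusted p = 2.76e-12). Rab4b ran the same way with smaller steps, from 54.6 ± 11.1 CPM in arterial to 71.0 ± 12.98 CPM in venous cells. Of the words of Rab4b, 58.1% also occur in other transcripts, among them Gm21983, which overlaps it.

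Rab11a, of the slower recycling route, was likewise higher towards veins, from 237 ± 12.6 CPM in arterial and 235 ± 20.4 CPM in arterial-side capillary cells through 264 ± 26.2 and 293 ± 32.6 CPM to 309 ± 26.9 CPM in venous cells. Its log2 difference was −0.43 between arterial and venous cells (adjusted p = 2.58e-07). Neighbouring segments overlapped for Rab11a, while each venous library exceeded each arterial one. Rab1a, of ER to Golgi transport, was higher in venous than in arterial cells by 0.33 on the log2 scale, and Rab12 by 0.21. Rab13, of tight junction delivery, was higher in venous than in capillary cells by 0.22.

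Rab34, Rab6b and Rab3a ran the other way, with their lowest means in venous cells. Mean Rab34 was 12.5 ± 1.604 CPM in arterial and 10.6 ± 2.41 CPM in arterial-side capillary cells and 6.68, 6.28 and 5.40 CPM in mid-, venous-side and venous cells. All arterial libraries of Rab34, at 10.6 to 15.0 CPM, lay above all venous ones, at 1.83 to 8.46 CPM, and the log2 difference was 1.14 ± 0.181 (adjusted p = 8.98e-06). Rab6b stood at 32.6, 39.3 and 53.8 CPM in arterial and 8.25, 17.97 and 26.6 CPM in venous cells, again without overlap, a log2 difference of 1.03 ± 0.111 (adjusted p = 1.71e-08). Rab3a was 17.1 ± 4.82 CPM in arterial, 20.7 ± 2.91 CPM in mid-capillary and 8.87 ± 2.70 CPM in venous cells. It differed by −0.80 ± 0.119 between venous and capillary cells (adjusted p = 4.23e-06) and by 0.61 ± 0.105 between the capillary sides. The Golgi paralog Rab6a moved with Rab6b, higher in arterial than in venous cells by 0.30, as were both cilium genes, Rab23 by 0.32 and Rab28 by 0.30.

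Rab31 and Rab29 set capillaries apart from both ends, while the other members in this paragraph did not. Rab31 was 15.0 ± 2.52 CPM in arterial, 19.1 CPM in mid-capillary, 22.2 ± 3.16 CPM in venous-side capillary and 14.3 ± 2.67 CPM in venous cells. Within capillaries Rab31 was also called, lower on the arterial than on the venous side. It was lower than capillary cells by −0.42 ± 0.099 in arterial and by −0.44 ± 0.082 in venous cells on the log2 scale. Rab29 followed, with −0.46 ± 0.124 in arterial and −0.30 in venous cells. Rab10 was 145 ± 17.1 CPM in arterial and 109 ± 12.8 CPM in mid-capillary cells and was higher in arterial than in capillary cells by 0.24 ± 0.06. Weaker calls were Rab3d, 0.34 higher in arterial than in capillary cells, and Rab19, 0.73 ± 0.226 higher (adjusted p = 0.0133), which lost its call without 3-month library 4. In venous over capillary cells Rab32 was higher by 0.81 ± 0.273 (adjusted p = 0.0184), a call lost without 12-month library 2, where it stood at 10.7 CPM against 1.83 to 4.40 CPM in the other 6. Rab40b was higher by 0.47 (adjusted p = 0.035), a call lost without any 1 of 4 libraries, 12-month 1 and 3-month 2, 3 and 4. Rab8b was higher in venous cells by 0.22, and Rab18, Rab21, Rab6a, Rab23 and Rab28 were lower by −0.16 to −0.25. Rab5c was lower in arterial than in venous cells by −0.15.

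**Figure D4:**
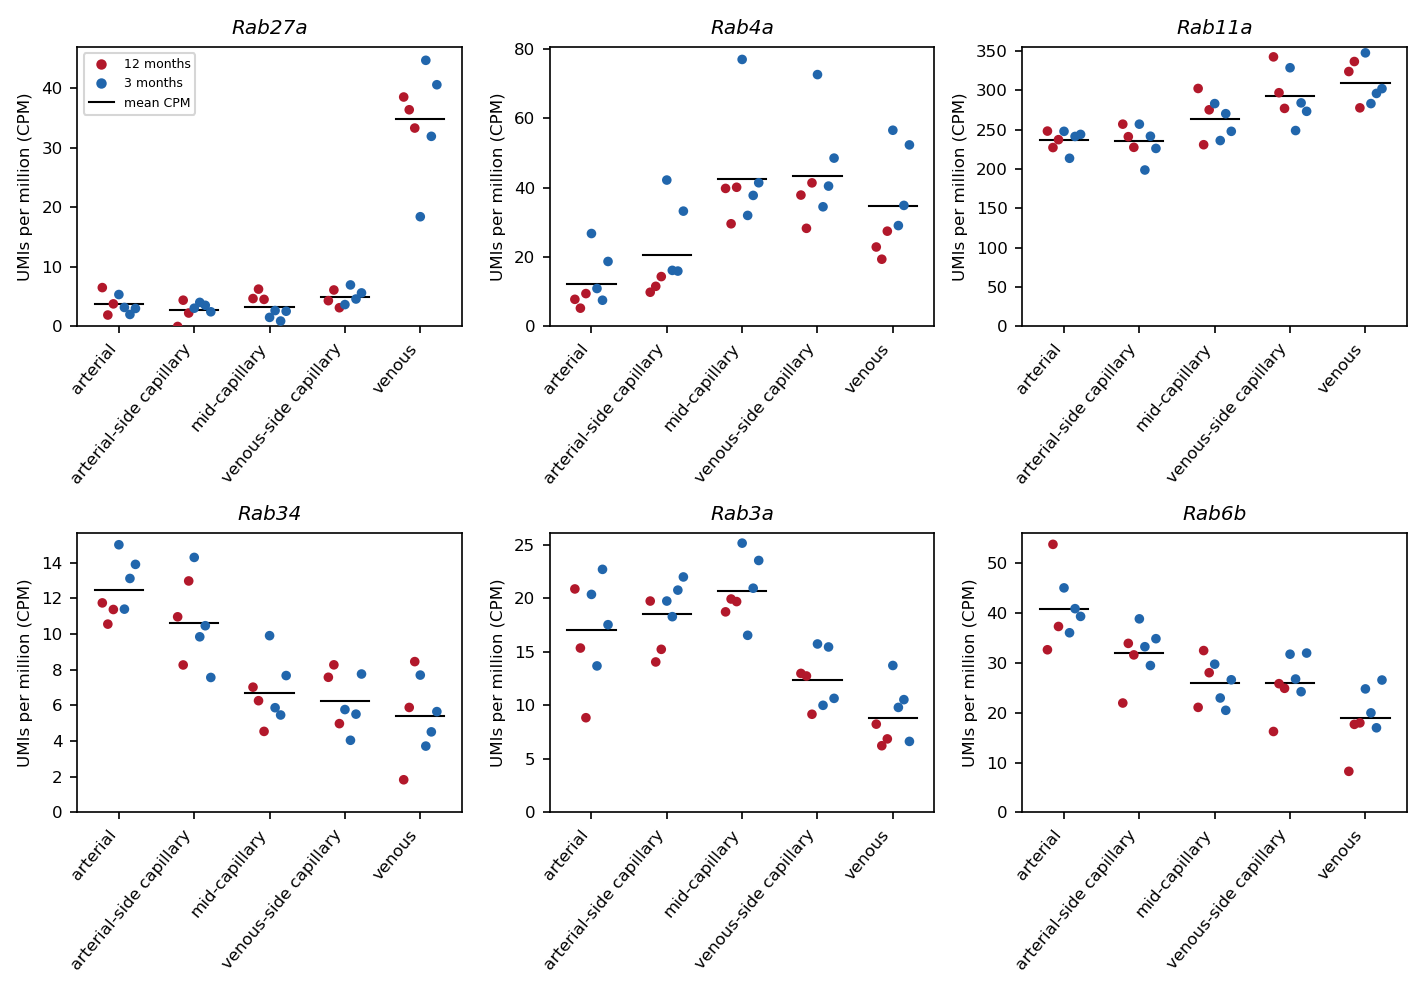
CPM of Rab27a, Rab4a, Rab11a, Rab34, Rab3a and Rab6b in 5 endothelial groups from arterial to venous; points are the 7 libraries, coloured by age, and bars are means. Rab27a is high in venous cells only, Rab4a and Rab11a are lower on the arterial side, and Rab34, Rab3a and Rab6b are lower on the venous side.

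The regulators and effectors of the Rab cycle were read from lists of 31 GEFs, 33 GAPs, 44 effectors, 8 genes of the GDP cycle and 3 kinases or phosphatases. In venous over capillary cells 8 of 34 tested effectors were higher and 13 lower, 8 of 30 GAPs were higher and 5 lower, and 7 of 28 GEFs were higher and 7 lower, beside 21.9% higher and 20.8% lower of all tested genes. Myrip, an effector that ties Rab27 to myosin, was 33.2, 66.6 and 73.8 CPM in venous cells and 29.5 ± 8.54 CPM in capillary cells, higher by a log2 difference of 1.17, in the same segment as Rab27a. Eea1, the Rab5 tether of early endosomes, was higher by 0.71. The GAP Tbc1d1 was lower by −1.51 and the Rab5 GEF Rin2 by −1.05, while its relative Rin3 was higher by 0.48. Rab11fip1, an effector of Rab11 in recycling, did not follow Rab11a. It was 107 ± 12.9 CPM in capillary, 73.0 ± 13.3 CPM in venous and 32.6 ± 8.57 CPM in arterial cells, lower in arterial than in capillary cells by −1.71. Tbc1d4, a GAP for Rab10 in glucose transporter delivery, was lower in arterial than in capillary cells by −1.23.

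Smooth muscle cells were lower than capillary cells for 16 of 28 tested GAPs and 12 of 29 GEFs, and higher for 4 and 3, beside 32% lower and 32.4% higher of all tested genes. Rab11fip1 was 3.32 CPM there and lower by −4.79, and Tbc1d4 was 8.16 ± 2.51 CPM against 119 ± 37.4 CPM, lower by −3.60. Ehbp1l1, an effector of Rab8 and Rab10, was higher by 1.56. In microglia 10 of 34 tested effectors were higher and 18 lower than in capillary cells, and 13 of 29 GEFs were higher and 7 lower, beside 35.7% higher and 37.1% lower of all tested genes. The GEF Rab3il1 was 243 ± 38.8 CPM in microglia and 1.74 ± 0.471 CPM in capillary cells, and the Rab35 GEF Dennd1c 74.3 ± 18.8 CPM, higher by 7.29 and 8.95 on the log2 scale. Mlph, a Rab27a effector, was higher by 3.19 but uneven, from 1.80 to 115 CPM over the microglia libraries. Gdi2, which returns Rab proteins to the cytosol, was 372 ± 56.5 CPM in microglia and 165 ± 23.6 CPM in capillary cells, higher by 1.31. In pericytes Tbc1d1 was 149 ± 49.8 CPM against 52.2 CPM in capillary cells, higher by 1.44.

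Between 12 and 3 months very few Rab genes differed, with 1 arterial-side cluster left out of the capillary cells for these comparisons. In venous cells 1 of 40 tested members, Rab20, was called, where 2.21% of all tested genes were. Venous Rab20 was 13.8, 16.6 and 8.99 CPM at 12 months and 2.35, 2.37, 0.959 and 1.72 CPM at 3 months, from 108 UMIs. The 3 older libraries lay above the 4 younger ones without overlap, and Rab20 rose by a log2 fold change of 3.06 ± 0.38 (adjusted p = 0.000637 by edgeR). The call held in the 18 alternatives run, with log2 fold changes of 2.57 to 3.28 and an adjusted p of at most 0.0205. Microglia markers in venous cells summed to 34.6 to 77.0 CPM at 12 months and 29.8 to 35.2 CPM at 3 months, against 14780 CPM or more in microglia, and their part in the result was not tested. In capillary cells Rab20 was 3.09, 2.46 and 1.82 CPM at 12 months and 1.77, 0.843, 0.799 and 0.506 CPM at 3 months, also without overlap, with a log2 difference of 1.41 ± 0.439 that was not called (adjusted p = 0.117). Without 3-month library 1, the highest of the younger ones, Rab20 and Rab5b were called in capillary cells. The difference between venous and capillary cells in the age effect of Rab20 was 1.72 ± 0.533 and was not called (adjusted p = 0.14). In microglia, where Rab20 is highest, it was 58.9, 73.0 and 76.6 CPM at 12 months and 97.0, 54.8, 58.2 and 54.0 CPM at 3 months, and the ages overlapped.

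In the other 5 classes edgeR called 0 members by age. The share of all genes called was 0.493% in arterial, 3.49% in capillary, 1.27% in pericyte, 0.142% in smooth muscle and 1.91% in microglia sums, with 36, 44, 36, 34 and 34 members tested. At an unadjusted p under 0.05 edgeR gave 2, 3, 2, 1 and 2 members, and DESeq2 gave 0 at an adjusted p and 2, 3, 2, 1 and 0 at an unadjusted p. The median log2 difference of the members lay between −0.04 and 0.04 in all 6 classes. Those with an unadjusted p under 0.05 included Rab4a, with log2 differences of 12 over 3 months in arterial, venous and pericyte sums of −0.95, −0.82 and −1.09. Venous Rab4a was 22.9, 19.4 and 27.5 CPM at 12 months and 56.6, 29.1, 34.9 and 52.4 CPM at 3 months. These values did not overlap, and the adjusted p was 0.203. Rab3d had log2 differences of 0.58, 0.51 and 1.23 in arterial, capillary and smooth muscle sums. In smooth muscle cells Rab3d was 25.3, 17.8 and 20.9 CPM at 12 months and 5.46, 12.7, 3.78 and 9.28 CPM at 3 months (adjusted p = 0.389). Rab6b in pericytes was 59.7, 63.9 and 46.1 CPM at 12 months and 33.9, 36.6, 22.2 and 29.2 CPM at 3 months (adjusted p = 0.119). The 59.7 CPM, of 12-month library 1, came from a sum of 30 cells and 50220 UMIs and rests on few UMIs. In the same pericyte sums the 8 pericyte markers summed to 16250 to 27190 CPM at 12 months and 10430 to 13570 CPM at 3 months, without overlap, and the 6 endothelial markers to 7554 to 11160 CPM and 11070 to 13920 CPM. Their part in the pericyte age differences of Rab6b and Rab4a was not tested. Rab28 in capillary cells and Rab1a and Rab39 in microglia made up the rest.

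Whether an age difference itself differed from that in capillary cells was tested for 41 members. Rab1a was the 1 member called, in microglia, where 3.87% of all genes were, with 0.58 ± 0.143 (adjusted p = 0.00875 by edgeR). Microglia held 178, 124 and 178 CPM of Rab1a at 12 months and 97.0, 142, 139 and 139 CPM at 3 months, and capillary cells 139, 156 and 159 CPM against 109, 172, 178 and 179 CPM. The ages overlapped in both classes, and within microglia alone Rab1a was not called (adjusted p = 0.399). This call was lost without 12-month library 1 or 3 and without 3-month library 2, 3 or 4. In arterial, venous, pericyte and smooth muscle sums edgeR and DESeq2 called 0 members, where edgeR called 0.48%, 0.798%, 0.858% and 1.4% of all genes. Among the alternatives of edgeR, clusters at resolution 1.0 gave 3 in pericytes (Rab11a, Rab3a and Rab4b), stricter doublet removal 1 in pericytes (Rab6b) and no filter on low counts 1 in venous cells (Rab20). At an unadjusted p under 0.05 edgeR gave 1, 1, 4 and 3 members and DESeq2 1, 1, 4 and 2. Of the regulator lists, Rin3 in capillary cells and Dennd4a in venous cells were higher at 12 months (edgeR adjusted p = 0.035 and 0.012), and Dennd4a in venous cells also differed from capillary cells in its age effect (adjusted p = 0.0344).

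**Figure D5:**
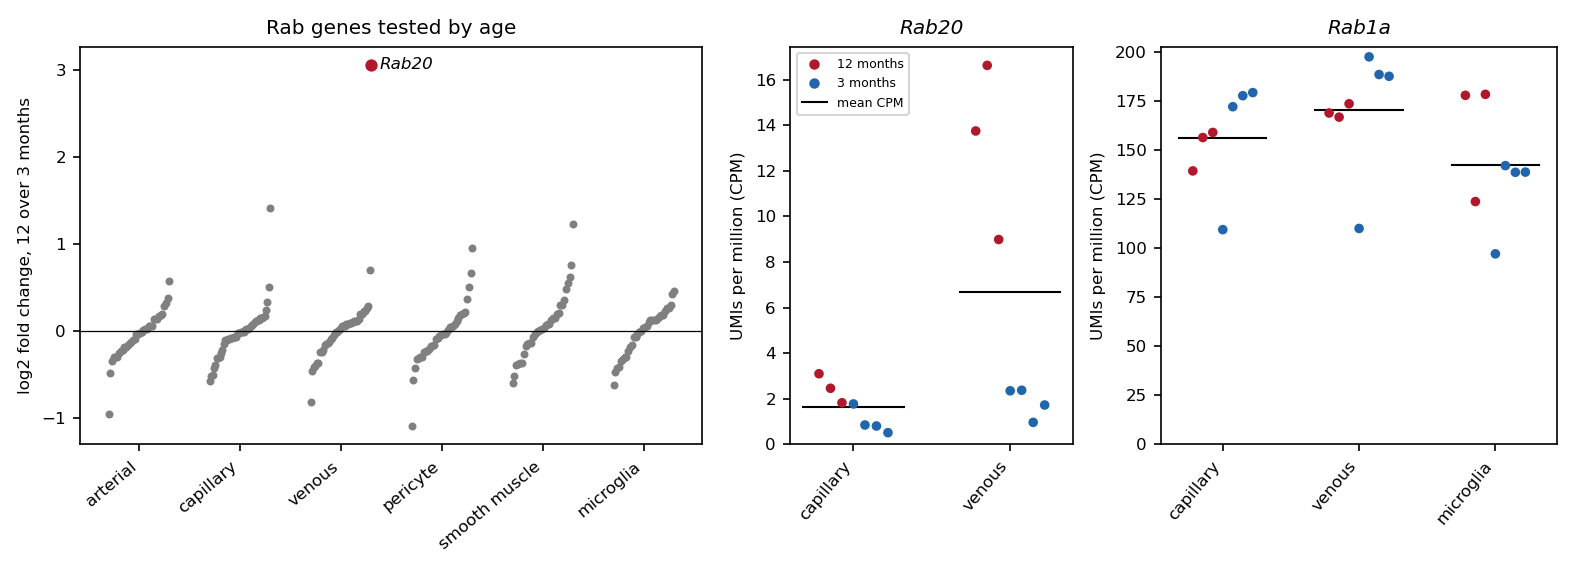
Left, log2 fold change of each tested Rab gene between 12 and 3 months in 6 classes, with called genes marked; middle and right, CPM of Rab20 and Rab1a per library, coloured by age, with means as bars. Venous Rab20 is the only gene called within a class, and its 12-month libraries lie above its 3-month libraries.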

How the data were processed

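The authors deposited 1 matrix of UMI counts per gene and barcode for each of 7 libraries. They used Cell Ranger 4.0.0 (12 months) or 6.1.1 (3 months), per the file headers, and Cell Ranger, Seurat and build mm10, per the submitters' processing notes. No source used here gives the cell calling, intron counting or strand setting, and 16 members overlap a gene on the opposite strand. Barcodes with at least 500 genes and at most 15% mitochondrial UMIs were kept, after Scrublet (Scanpy 1.11.5) removed doublets at 0.8% per 1000 barcodes. Cells were integrated and clustered with Seurat 5.3.0 (2000 variable features without Rab genes, their regulators and the markers, 30 components, resolution 0.5) and named from markers. Clusters of capillary cells led by hemoglobin genes (4272 cells) or Lars2 (3245) stayed unnamed, and for the ages and their differences 1 arterial-side cluster of 3526 cells was left out of capillary cells. Its leading genes held more arterial than capillary markers. The class and segment contrasts kept this cluster among the capillary cells.

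Counts were summed per library and class (at least 20 cells) and tested with edgeR 4.0.16 in R 4.3.3 (TMM, filterByExpr, quasi-likelihood, Benjamini-Hochberg over all genes). DESeq2 1.42.0, filters, thinning, clustering, doublets, left-out libraries and the replicate block were alternatives. In simulated counts with 200 changed genes, 72% of 2-fold and 98% of 4-fold changes were recovered for venous ages, 45% and 96% for pericyte ages and 88% and 99% for microglia over capillary cells. The simulated spread followed a fixed formula and was not estimated from these libraries. These shares therefore check the procedure and do not measure the power of the real tests.

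The members and lists were chosen with earlier results of these data known. Named with full values are members that mark a class, those called between segments with a log2 fold change of at least 1 (or the 6 largest), those called by age, and the 6 largest called in each direction in the contrasts of pericytes, smooth muscle cells and microglia. CPM are the summed counts scaled to a total of 1000000.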

Additional observations from a re-analysis of the deposited data

Results flagged for a closer look

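Within a class, the 4 libraries of 3 months were searched for a value that stands apart from the other 3, by Dixon's test of the gap divided by the range. Of 106 such groups of Rab genes, 12 held one. Chance gives about 1 in 20 for independent groups, but these groups share libraries and were taken from members already called. The rates therefore cannot be set against each other. Where the other 3 values are all 0, as for Rab32 in smooth muscle cells and Rab39 in capillary cells, the gap equals the range by construction. The library was 3-month library 1 in 9 of the 12, library 3 in 2 and library 2 in 1. Library 1 was low for Rab1a, at 111.4 CPM in capillary cells (here with all their clusters) where the others were 169.6 to 176.6, and at 96.97 CPM in microglia where they were 138.5 to 141.9. It was also low for Rab23 in capillary cells, at 13.77 CPM (19 to 19.76), for Rab5c in capillary cells, at 130.9 CPM (148.4 to 151.3), and for Rab40b in venous cells, at 2.679 CPM (6.768 to 7.377). Library 1 was high for Rab20 in microglia, at 96.97 CPM (53.98 to 58.22), for Rab19 in capillary cells, at 5.583 CPM (2.006 to 2.464), and for Rab4b in pericytes, at 80.55 CPM (54.97 to 57.46). Rab32 in smooth muscle cells was 1.818 CPM in library 1 and 0 in the others, from 2 UMIs over all 7 libraries. Library 3 was high for Rab3d in microglia, at 16.06 CPM (1.405 to 3.599), and for Rab27a in smooth muscle cells, at 8.515 CPM (7.043 to 7.273). Library 2 held the only capillary UMI of Rab39 at 3 months, at 0.06078 CPM.

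The age difference of Rab1a in microglia differed from that in capillary cells by 0.582 on the log2 scale, by the test of the difference given above. The low value of 3-month library 1 stands in both classes of this comparison.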

How the results depend on the processing

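Of 72 results on named members, 1195 values under alternatives were computed, and 1116 kept direction and call, 76 lost the call and 3 turned. The 3 that turned were Rab11a at −0.509, Rab13 at −0.531 and Rab8a at −0.129 in pericytes over smooth muscle cells, with the pericytes rich in endothelial markers left out. Over left-out libraries, the count called in pericytes over capillary cells was 7 to 11, age calls in capillary cells were 0 to 2, and the age difference of microglia against capillary cells gave 0 to 1. Thinned sums gave 3 in pericytes over capillary cells, 14 in smooth muscle over capillary cells, 2 in arterial over capillary, 2 in venous over capillary, 3 in arterial over venous cells, 6 between the capillary sides and 3 microglia marks (Rab20, Rab43 and Rab8b). Fewer genes pass the filter there by construction. A fit of pericytes and capillary cells alone gave 6. Clusters at resolution 1.0 gave 11 in venous over capillary cells, 10 of them shared, and 3 age differences in pericytes (Rab11a, Rab3a and Rab4b). No filter on low counts gave 2 venous age calls (Rab20 and Rab4a) and 1 venous age difference (Rab20), and stricter doublet removal 1 in pericytes (Rab6b). The Rab1a age difference in microglia gave 0 calls with at least 1000 genes per cell and with thinned sums. With no minimum fold, marks were 1 in capillary, 1 in venous, 3 in smooth muscle cells and 11 in microglia. Shares of all genes under that rule were not computed. Clean pericytes had 1 mark, Rab34. The cause was not tested for the others.

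Losses of single calls were most frequent for Rab11b in pericytes over smooth muscle cells, for Rab29 and Rab4a in pericytes over capillary cells, for Rab40b in venous over capillary cells and for the Rab1a age difference in microglia. In pericytes over smooth muscle cells Rab27a was −0.13 at resolution 1.0. Labels number the libraries in both ages, but same-numbered libraries did not deviate together (correlations of 0.035, 0.18 and −0.066). With the replicate block the counts were 12 in pericytes over smooth muscle, 8 in pericytes over capillary, 23 in smooth muscle over capillary and 30 in microglia over capillary cells, 5 microglia marks and 1 venous age call, and no call count moved by over 1.5 times. Leaving out capillary clusters of low UMI counts was not run because the named class holds none. Depth limits the 9 members too low to test, which range up to 335 UMIs in capillary cells, and pericyte ages.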

Other observations

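Levels of some Rab genes in clusters outside the 6 classes are given here as values with no test. In 1324 endothelial cells led by Plvap, Igfbp3 and Rbp7, genes of fenestrated endothelium, Rab13 was 125.8 CPM, Rab8b 66.94 CPM, Rab20 10.02 CPM, Rab4a 7.632 CPM and Rab27a 1.749 CPM. In 413 cells led by the B cell genes Igkc, Ly6d and Cd79a, Rab21 was 179.8 CPM, Rab8a 115.5 CPM, Rab30 26.16 CPM and Rab19 13.08 CPM. Rab39 held 7 UMIs in these B cells, at 7.629 CPM. In 191 cells led by Ccl5, Trbc2 and Ms4a4b, of T and NK cells, Rab27b was 11.23 CPM, Rab19 12.63 CPM and Rab27a 21.05 CPM. In 154 cells led by the choroid plexus genes Ttr, Ecrg4 and Enpp2, Rab36 was 24.72 CPM and Rab20 32.96 CPM. In 263 cells led by the fibroblast genes Dcn, Col3a1 and Ccl19, Rab34 was 69.26 CPM. A further cluster outside the 6 classes also held the 5 genes that marked microglia. Rab43 was 65.63 CPM there, above its mean of 47.57 CPM in microglia. Rab8b was 115.4 CPM, Rab20 31.76 CPM, Rab32 31.76 CPM and Rab39 14.82 CPM, all under their means in microglia.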
